A study of Arabidopsis thaliana with 36 samples.

Results

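The 150 genes described here are a late wave of induction in seedlings given the bacterial peptide flg22: in wild-type seedlings, on the scale of counts divided by each library's total, they had moved little by 1 h and were higher at 2 h. On the TMM scale used for the tests below they were not flat at 1 h. They were chosen from the wild-type (WT) libraries alone. Counts were divided by each library's total and written as counts per 1000000 (CPM), and the 3 WT libraries of a time were averaged. A gene was kept if its WT level at 2 h was at least 5 CPM and its WT log2 change from 0 h to 1 h, with 1 CPM added to both levels, was under 0.5 in size. Of the 32678 genes in the table, 7569 met both conditions, and the 150 with the highest WT log2 change from 0 h to 2 h were taken. The WT libraries therefore fixed the shape of the profile, and every value that involves WT is given below as a description. What the choice did not use, and what could be tested, was the behaviour of these genes in the 3 mutants.

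The study used whole Arabidopsis thaliana seedlings, 12 days old, grown in liquid medium under long days. There were 4 genotypes: Col-0 WT, the wrky18 mutant, the wrky40 mutant and the wrky18 wrky40 double mutant, whose alleles are not given in the sources used here. Each genotype was sampled untreated (0 h) and after 1 h and 2 h in fresh medium with 1 µM flg22, in 3 biological replicates, which gives 12 groups and 36 libraries of poly(A) RNA. Medium was replaced only for the treated seedlings, so in any comparison with 0 h the effect of flg22 cannot be told apart from that of new medium or of clock time. In whole seedlings, more cells of a type and more RNA per cell cannot be told apart either.

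Flg22 is the part of bacterial flagellin that plant cells sense through the receptor kinase FLS2 and its partner BAK1. Within minutes the receptor complex starts ion fluxes, an oxidative burst and kinase cascades, and a first set of genes, rich in receptors, kinases and transcription factors, is switched on within the hour. Slower genes include some that supply what a defended cell makes and secretes: indole compounds, sulphur-containing metabolites, conjugating enzymes, wall proteins and the folding machinery of the endoplasmic reticulum. Other genes of these kinds are early, as the counts over gene lists below show. WRKY18 and WRKY40 are related transcription factors that bind W boxes, DNA motifs with the core TTGAC, and are known as partly redundant regulators of immune genes, often as repressors.

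The libraries held between 17287229 and 38709715 counts, and 21356 genes had enough counts to be tested, all 150 members among them. The mutated genes were low but not silent in their mutants: after 1 h WRKY18 was at 26 to 31.8 CPM in wrky18 against 114 to 135 in WT, and WRKY40 was at 24.1 to 26.9 CPM in wrky40 against 212 to 241 in WT. In the double mutant at 1 h the ranges were 49 to 54.1 CPM for WRKY18 and 20.1 to 32 CPM for WRKY40. The 16 root marker genes and the 5 markers of photosynthetic tissue were all present. Summed, the root markers were at 159.7 to 218.2 CPM at 0 h, 117.7 to 182.7 at 1 h and 157.6 to 193.4 at 2 h over all genotypes. The photosynthetic markers summed to 29727 to 35947 CPM at 0 h and 18097 to 25295 at 2 h, and all 5 were lower at 2 h than at 0 h in each mutant. Of the 16 root markers 5, 3 and 2 were higher and 7, 6 and 7 lower at 1 h in wrky18, wrky40 and the double mutant, and 5 in each were higher and 6, 6 and 7 lower at 2 h. The part of either tissue in the changes below was not tested.

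The values that chose the genes were as follows. On the scale of the choice, the median WT log2 change of the 150 was 0.26 at 1 h and 1.63 at 2 h, with a range of 1.27 to 4.77 at 2 h, and 42 of them were at least 4-fold higher. WT levels at 2 h ran from 5.30 to 1407 CPM with a median of 46.1. The highest change belonged to ELI3-2, a cinnamyl alcohol dehydrogenase, followed by the nitrate transporter NRT2.6, the jasmonate-oxidising enzyme CYP94C1, the glucosyltransferase UGT76E12 and CYP71A13 of camalexin synthesis. Next came AT4G12500, a lipid-transfer type protein, LSU1, a small protein known from sulphur starvation, the cation exchanger CHX16, the extensin-like AT1G26240 and the receptor-like kinase AT1G66830. At the lower end AT1G13990 (1.28) and AT4G09560 (1.27) were just inside the rank limit, and ILR1 (1.27) and AT4G24015 (1.27) were just outside. At the limit on the 1 h change, AT1G07030 (0.50) and AT5G57123 (0.49) were just inside, and ELF4 (0.50) and AT1G27330 (0.51) just outside. These genes were the exception among genes induced as strongly: of 1882 genes whose WT change at 2 h reached that of the last member, 1718 were already higher by 0.5 or more at 1 h.

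The promoters of 6 members are shown because each of them differed between the double mutant and wrky18 at 1 h or 2 h with a call kept in all 6 fits that leave out 1 library. APK, PMAT1, CYP710A1 and ERF2 were higher in the double mutant and HA2 and PTR3 lower, and the 6 were picked among such genes after their values were seen. Each is the stretch of 250 bases before the start of the gene's RefSeq model, 5′ to 3′ on the gene's strand, cut from the TAIR10.1 genome. Capitals mark the W box core TTGAC or its reverse GTCAA, the G box CACGTG and the evening element AAATATCT.
APK, chr2:6313633-6313882, plus strand, no match to the 3 motifs: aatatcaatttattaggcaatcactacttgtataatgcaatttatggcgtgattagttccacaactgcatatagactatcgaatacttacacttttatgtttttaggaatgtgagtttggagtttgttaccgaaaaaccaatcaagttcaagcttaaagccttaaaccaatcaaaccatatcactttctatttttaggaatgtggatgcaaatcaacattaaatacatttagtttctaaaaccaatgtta
PMAT1, chr5:15634194-15634443, plus strand, 2 W box cores: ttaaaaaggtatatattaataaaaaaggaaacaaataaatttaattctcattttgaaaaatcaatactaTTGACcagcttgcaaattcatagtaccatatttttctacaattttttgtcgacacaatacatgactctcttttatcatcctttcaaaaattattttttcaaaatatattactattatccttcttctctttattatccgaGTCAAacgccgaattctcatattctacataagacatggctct
CYP710A1, chr2:14541618-14541867, minus strand, 2 W box cores side by side: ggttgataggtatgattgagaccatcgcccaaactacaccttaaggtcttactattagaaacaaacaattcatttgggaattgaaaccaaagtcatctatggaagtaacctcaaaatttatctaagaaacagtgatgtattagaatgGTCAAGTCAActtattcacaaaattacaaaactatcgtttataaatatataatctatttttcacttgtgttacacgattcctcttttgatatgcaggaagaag
ERF2, chr5:19172957-19173206, minus strand, 1 W box core and 1 G box: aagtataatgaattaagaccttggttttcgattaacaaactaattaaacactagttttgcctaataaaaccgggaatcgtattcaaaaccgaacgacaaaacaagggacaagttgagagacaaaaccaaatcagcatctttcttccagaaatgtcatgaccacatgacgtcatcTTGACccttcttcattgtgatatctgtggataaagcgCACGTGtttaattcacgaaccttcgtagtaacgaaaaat
HA2, chr4:14776248-14776497, minus strand, no W box core and 1 evening element: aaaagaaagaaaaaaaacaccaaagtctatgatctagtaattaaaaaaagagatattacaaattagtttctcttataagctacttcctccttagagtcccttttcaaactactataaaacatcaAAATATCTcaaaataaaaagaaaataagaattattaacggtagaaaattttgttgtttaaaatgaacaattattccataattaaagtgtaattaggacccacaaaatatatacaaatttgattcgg
PTR3, chr5:18679192-18679441, minus strand, 1 W box core: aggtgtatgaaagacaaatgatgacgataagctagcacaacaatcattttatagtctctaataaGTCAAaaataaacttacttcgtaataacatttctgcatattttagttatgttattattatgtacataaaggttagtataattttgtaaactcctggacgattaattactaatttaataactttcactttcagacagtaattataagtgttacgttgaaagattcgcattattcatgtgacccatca
APK has none of the 3 motifs in this window. A match or its absence is a description of these letters alone. In the longer window searched for the shares below, which adds 50 bases after the start, HA2 holds 1 W box core and PTR3 holds 2.

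All 150 genes also rose at 2 h in each of the 3 mutants. Here and below, levels and changes are on the TMM scale, in which edgeR scales each library by the trimmed mean of ratios between libraries, and tests are edgeR's quasi-likelihood test over all 21356 genes with Benjamini-Hochberg adjustment, called at an adjusted p below 0.05. The median log2 change from 0 h to 2 h over the 150 was 2.09 (wrky18), 2.11 (wrky40) and 2.1 (double mutant), against -0.02, 0.00 and -0.02 over all genes. Among all genes tested 36.8%, 37.2% and 36.3% were called higher at 2 h in these 3 genotypes. From 1 h to 2 h all 150 rose again in each mutant, by medians of 1.59, 1.5 and 1.46, where 28.7%, 27.1% and 24.8% of all genes were called higher. The 3 libraries at 2 h lay above the 3 at 0 h for all 150 genes in wrky18 and wrky40, and for 149 in the double mutant, as they did for 37.1%, 37.5% and 37.2% of all genes. For comparison, the WT change had a median of 2.03, a value fixed by the choice.

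**Figure D1:**
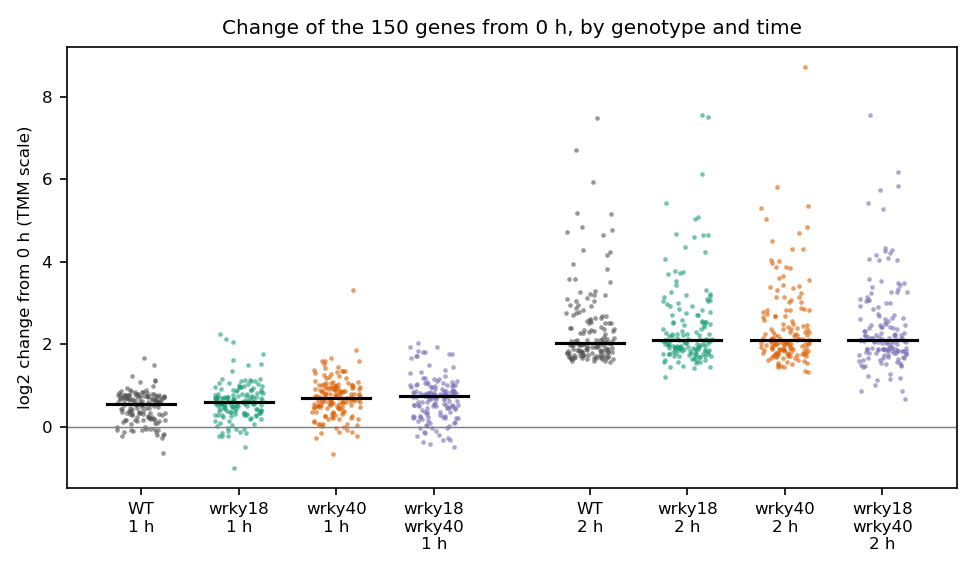
Log2 change from 0 h (vertical axis, TMM scale) of each of the 150 genes at 1 h and 2 h in WT, wrky18, wrky40 and the wrky18 wrky40 double mutant. Each point is a gene, drawn with random sideways shift, and the bar is the median, which is between 0.56 and 0.74 at 1 h and between 2.03 and 2.11 at 2 h.

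The size of the 2 h rise ranged widely. AT1G26240, a proline-rich extensin-like wall protein, was almost unread before treatment, with 0.0358, 0.0885 and 0.0528 CPM in the wrky18 libraries and 0.144, 0.121 and 0.127 in the double mutant. At 2 h the same genotypes had 12.7, 13.8 and 10.2 CPM and 29.9, 17.8 and 28.4 CPM. The groups are far apart, and the log2 changes were 7.56 ± 0.38 (SE) and 7.55 ± 0.34. In wrky40 the 3 untreated libraries together held only 3 counts, against 1186 at 2 h, a ratio of 399.2 with a 95% counting interval of 136.3 to 1939. CYP71A13 rose by 7.52 ± 0.73 in wrky18 and 6.18 ± 0.60 in the double mutant. In wrky40 its change was 3.39 ± 0.49, with 1 untreated library that stands apart, replicate 1 at 5.53 CPM against 0.0693 and 0.0814 in the other 2. Without that library the change was 8.12 ± 0.49. CYP71A13 overlaps a gene on the other strand and has a close copy, CYP71A12, so its counts may be shared.

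At the other end were genes whose rise was small in the double mutant. The smallest was that of AT4G12490, a lipid-transfer type protein, at 0.68 ± 0.30 with an adjusted p of 0.0448. That call is lost on the total-count scale, in DESeq2 and without either of 2 untreated and 2 treated double mutant libraries (replicates 1 and 2 at 0 h, replicates 1 and 3 at 2 h). In wrky18 and wrky40 the same gene rose by 2.22 and 2.02. YSL7, a metal-chelate transporter of the yellow stripe family, rose by 0.86 ± 0.19 and the peptide transporter PTR3 by 0.87 ± 0.12 in the double mutant. In wrky18 the smallest rises were those of AT5G37590 at 1.2 ± 0.11 and of ERF2 at 1.44 ± 0.17, and in wrky40 those of XTH30 at 1.33 ± 0.13 and JAZ6 at 1.35 ± 0.11.

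Whether these genes are flat at 1 h depends on the scale. The rule used CPM by total count, while TMM places the 1 h to 0 h log2 ratios higher by 0.27 in WT, 0.28 for wrky18, 0.27 for wrky40 and 0.32 for the double mutant, and the 2 h to 0 h ratios by 0.28 to 0.35. On the TMM scale the members were not flat: 113 of 150 were higher at 1 h in the wrky18 libraries, 120 in those of wrky40 and 114 in those of the double mutant, where 28.3%, 29.9% and 30.1% of all genes were called higher. The median changes were 0.60, 0.71 and 0.74, against -0.05, -0.04 and -0.04 over all genes. On the total-count scale the count in wrky18 was 73, with 10 lower. The shares of all genes given here belong to the TMM scale, so the 73 and the 10 stand without a background. In WT itself 102 members were higher at 1 h on the TMM scale (28.8% of all genes), with a median of 0.56. If the rule is run on TMM-scaled CPM, 79 of the 150 remain among its choice. The median share of the 2 h log2 change already present at 1 h was 26.7% for wrky18, 31.3% for wrky40 and 29.9% for the double mutant. In WT, where the rule held it down, it was 24.3%.

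A few members stood out at 1 h. The largest rise past the threshold in wrky40 was that of AT1G26240, which went from 3 to 24 counts over the 3 libraries, a ratio of 9.38 with a 95% counting interval of 2.85 to 48.6. In the double mutant the largest was that of ACR6, an ACT-domain protein, with 0.65, 0.546 and 0.467 CPM at 0 h and 2.38, 2.26 and 2.23 CPM at 1 h. All 3 treated libraries were above the untreated ones, and the change was 2.03 ± 0.26. ACR6 overlaps a gene on the other strand, and the strand setting of the counting is not given in the sources used here. The wrky18 libraries had their largest called rises in AT1G26240 and TPS04, followed by the glycosyltransferase AT2G36780, the uncharacterised AT5G57123 and the cytokinin-activating LOG5. In wrky40 AT5G57123, TPS04, FKF1 and AT3G05390 came after AT1G26240, and in the double mutant AT1G26240, the zinc finger protein AT2G28710, ELI3-2 and CYP71A13 came after ACR6. The CYP71A13 call is lost on the total-count scale and without any of its 3 untreated libraries or 1 h replicate 3. In wrky18 the first pair rose by 2.12 ± 0.74, a call lost without 1 h replicate 1, and by 2.05 ± 0.66 for this terpene synthase, lost without 1 h replicate 2.

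Falls at 1 h were rare. NRT2.6 was at 5.19, 5.37 and 6.68 CPM at 0 h and 2.5, 3.22 and 3.01 CPM at 1 h in wrky18. It is the only member called lower there, with a change of -0.99 ± 0.33 (32.0% of all genes were called lower), and the call is lost without wrky18 1 h replicate 1. At 2 h it stood at 110.0, 94.8 and 123 CPM. In the double mutant TSB2, the beta subunit of tryptophan synthase, and XTH30, a xyloglucan-modifying wall enzyme, were called lower at 1 h, with changes of -0.33 ± 0.13 and -0.32 ± 0.13, against 32.7% of all genes. Both of these calls are lost without single libraries of either time (without double mutant replicate 2 at 0 h, for example). On the total-count scale the lower calls numbered 10, 6 and 12 in the 3 mutants, without a share of all genes on that scale.

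The genes of sulphur assimilation and glutathione rose together at 2 h. APR1, which reduces activated sulphate, APK, which makes the sulphate donor used for glucosinolates, the sulphate transporter SULTR3;5, the glucosinolate sulphotransferase SOT16 and glutathione synthetase GSH2 are among 11 members with such roles. The 11 had a median change of 2.49 (wrky18), 2.58 (wrky40) and 2.73 (double mutant). LSU1 was at 1.08, 0.59 and 0.488 CPM untreated, 2.9, 1.58 and 2.23 at 1 h and 41.2, 27.3 and 24.7 at 2 h in wrky40. No library of one time overlapped with the next, and its rise at 2 h was 5.35 ± 0.29. APR1 in the double mutant was at 96.5, 115 and 92.6 CPM untreated, 143, 121 and 152 at 1 h and 703, 967 and 953 at 2 h. The 1 h libraries lay just above the untreated ones, the 2 h libraries stood far above both, and the changes were 0.45 ± 0.13 and 3.11 ± 0.14.

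The counts over gene lists here and below stand beside the shares of all genes called higher in wrky18, wrky40 and the double mutant, 28.3%, 29.9% and 30.1% at 1 h and 36.8%, 37.2% and 36.3% at 2 h. Called lower were 32.0%, 32.2% and 32.7% at 1 h and 36.5%, 36.1% and 36.2% at 2 h. No difference between lists was tested. Of 35 genes of sulphate uptake, assimilation and glutathione synthesis, a list put together after the members were seen and 7 of them members, 28, 28 and 27 were higher at 2 h in wrky18, wrky40 and the double mutant, and 5, 4 and 4 were lower. At 1 h the list was mixed, with 15 higher in each mutant and 11, 8 and 10 lower. Its median went from 0.11, 0.08 and 0.15 at 1 h to 1.42, 1.58 and 1.60 at 2 h. Glutathione transferases, which conjugate glutathione to foreign and reactive compounds, were counted over a list of 22: 18, 17 and 17 were higher at 1 h, and 21, 20 and 21 at 2 h. Only GSTU2 and GSTU24 of them are members. In the methyl cycle, which regenerates the methyl donor, 3, 4 and 3 of 12 genes were higher and 5, 5 and 7 lower at 2 h. The higher counts of this list are at or below the share of all genes.

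Roles in shikimate, tryptophan and indole metabolism were given to 8 members. DHS1 opens the shikimate pathway, AT2G45300 encodes its EPSP synthase, and TRP1, AT2G04400 and TSB2 are enzymes of tryptophan synthesis. CYP79B2 turns tryptophan into indole-3-acetaldoxime, the branch point towards indole glucosinolates and the phytoalexin camalexin. In wrky40 CYP79B2 was at 97.4, 74.7 and 58.7 CPM untreated, 118, 117 and 128 at 1 h and 794, 1027 and 1011 at 2 h. The 2 h libraries were far above all others, and the rise was 3.62 ± 0.16. TSB2 was at 11.6, 9.94 and 9.77 CPM untreated, 8.78, 8.95 and 10.7 at 1 h and 48, 40.4 and 41.5 at 2 h in wrky18. Its untreated and 1 h libraries overlapped, and its rise at 2 h was 2.06 ± 0.12. TSB2 has a close paralogue, TSB1, with which it may share reads.

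Among the 12 genes of tryptophan synthesis 8 were higher and 3 lower at 2 h in each mutant, with medians of 1.97, 2.18 and 2.03. The members TRP1, AT2G04400 and TSB2, chosen for their rise in WT, are in this list and its counts. Of the 13 shikimate genes, with the members DHS1 and AT2G45300, 8 were higher in each, with medians of 0.65, 0.52 and 0.64. Of the 11 genes of camalexin and indole carbonyl nitrile synthesis 8, 9 and 10 were higher at 1 h and 11, 10 and 10 at 2 h. Their 2 h medians were 4.93, 4.0 and 4.57, with the members CYP79B2 and CYP71A13 included. The lists of phenylalanine synthesis and of the phenylpropanoid pathway hold no member. The phenylpropanoid list leaves out the member ELI3-2, described as cinnamyl alcohol dehydrogenase 8. Of 7 phenylalanine genes 6, 6 and 5 were higher at 2 h, and of 19 phenylpropanoid genes 16, 16 and 15.

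**Figure D2:**
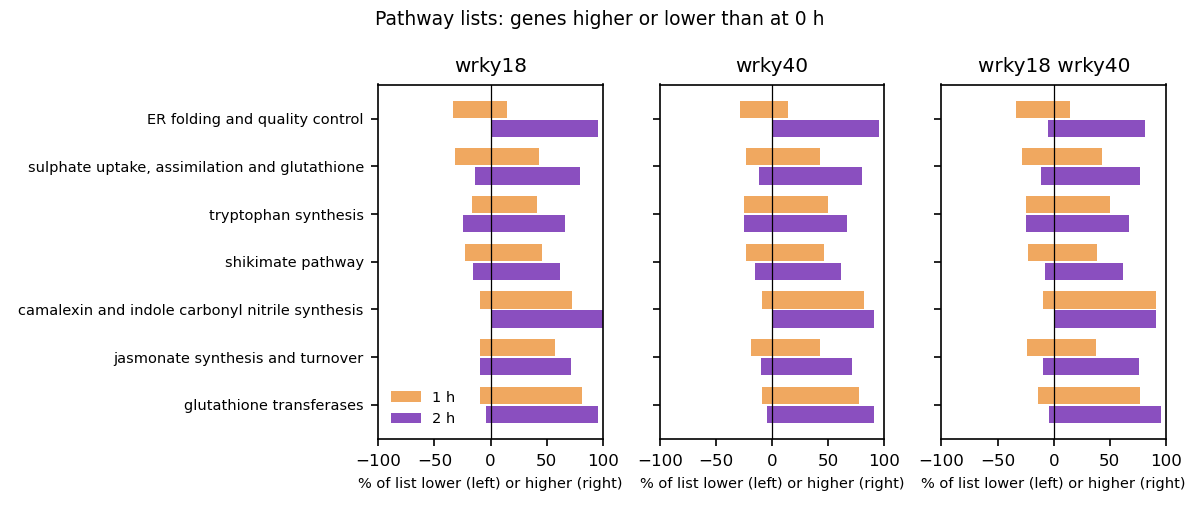
Share of each pathway list called higher (right of 0) or lower (left of 0) than at 0 h, in percent of the list's tested genes, at 1 h and 2 h in each mutant. Each list holds members, which were chosen for a rise in WT at 2 h. The endoplasmic reticulum list went from 3 of 21 genes higher at 1 h in each mutant to 20, 20 and 17 at 2 h, while most glutathione transferases were higher at both.

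Folding genes of the endoplasmic reticulum (ER) were mostly higher at 2 h but not at 1 h. Of 21 genes of ER folding and quality control 3 were higher at 1 h in each mutant, and 7, 6 and 7 were lower. At 2 h 20 were higher for wrky18, 20 for wrky40 and 17 for the double mutant, with medians of 0.87, 1.03 and 0.52. ATERDJ3A, a J-domain partner of the ER chaperone BiP, is the member in this list. In wrky40 it was at 7.66, 6.52 and 5.25 CPM untreated, 6.28, 4.14 and 5.53 at 1 h and 40.2, 66.7 and 53 at 2 h. Untreated and 1 h libraries overlapped, all 2 h libraries were far above, and the rise was 3.03 ± 0.20. A further 10 members work in the secretory pathway, among them the thiol oxidase ERO2, the nucleotide-sugar transporters UTR1 and UTR3, the cell death regulator BI1 and the exocyst subunit SEC3B. UTR1 and UTR3 passed the test at 1 h in no mutant, and at 2 h they rose by 1.71 and 1.75 in wrky18, 1.92 and 2.05 in wrky40 and 1.29 and 1.48 in the double mutant.

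Nitrogen and amino acid genes made up 9 members, with 2 h medians of 2.31, 2.38 and 2.19. They include the nitrate transporters NRT2.6 and NRT1.8, the cytosolic glutamine synthetase GSR 1, the peptide transporters PTR3 and PTR5 and the serine enzymes PSAT and SHM7. In the double mutant PSAT was at 83.4, 85 and 74.5 CPM untreated, 74.1, 73.5 and 77 at 1 h and 397, 351 and 364 at 2 h. The first 2 groups overlapped and the 2 h libraries were far above both, a rise of 2.19 ± 0.11. At 1 h the test was not passed (-0.11 ± 0.11).

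A role in jasmonate metabolism or response was given to 6 members. CYP94C1 oxidises the active hormone jasmonoyl-isoleucine, IAR3 is an amidohydrolase that cleaves amino acid conjugates of the hormone, ACX1 acts in the beta-oxidation steps of its synthesis and JAZ6 is one of the repressors that the hormone removes. In wrky18 CYP94C1 was at 4.3, 3.1 and 3.22 CPM untreated, 4.89, 11.4 and 5.77 at 1 h and 97.5, 87.8 and 82.4 at 2 h. The 2 h libraries stood far above, a rise of 4.67 ± 0.22. IAR3 passed the test at 1 h in no mutant and rose by 2.37, 2.38 and 2.61 at 2 h. Of 21 jasmonate genes tested, 2 of them members, 12, 9 and 8 were higher at 1 h and 15, 15 and 16 at 2 h. The list of salicylic acid and pipecolic acid genes holds no member. Its genes were mostly up by 1 h: 13, 14 and 16 of 19, and 16 in each mutant at 2 h. AT4G01895, a member outside that list, is described as a NIMIN-1-like regulator of systemic acquired resistance. A list of 10 PR, chitinase and defensin genes also holds no member, and 4, 4 and 3 of them were higher at 2 h, near the share of all genes. ChiC, a member outside this list, is described as a glycosyl hydrolase with a chitinase insertion domain.

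The members hold 12 transcription factors: ERF1, ERF2, Rap2.6L, WRKY45, WRKY39, NAC3, NAC019, TGA3, MYB74, BBX8, AT2G28710 and AT3G12510. The 12 rose at 2 h by medians of 2.07, 2.02 and 2.16, and 10 of them were higher at 1 h in each mutant, a share near that of all 150 members (113, 120 and 114). NAC3 and NAC019 are also among the 6 jasmonate genes above. ERF1, an integrator of ethylene and jasmonate signals, was at 2.6, 2.58 and 2.68 CPM untreated, 5.31, 5.72 and 4.86 at 1 h and 22.7, 20.6 and 19.5 at 2 h in the double mutant. Each time was clear of the one before, with rises of 1.02 ± 0.19 and 3.0 ± 0.18. The 3 WRKY genes of group IIa, none a member, are WRKY18, WRKY40 and WRKY60, so the list holds the mutated genes themselves, whose counts in their own mutants come from the mutated loci. With them, 2 were higher and 1 lower at 1 h in each mutant, and at 2 h 2, 3 and 3 were higher and none lower. WRKY60, the one mutated in no genotype, was the lower one, with 1 h changes of -1.38 ± 0.24, -1.14 ± 0.24 and -0.65 ± 0.23. FKF1, a blue-light receptor of the circadian clock, is a member too, and rose at 2 h by 3.44, 3.97 and 4.33. Of 17 clock genes 9, 8 and 8 were higher and 5, 7 and 5 lower at 2 h, a comparison in which 2 h of clock time also passed.

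Conjugating and other enzymes of specialised metabolism had the highest 2 h median of the 9 role groups in each mutant, as a description. The 10 in this group, with ELI3-2, TPS04, 4 UDP-glycosyltransferases, 2 acyltransferases and the sterol desaturase CYP710A1, had medians of 3.14, 2.93 and 3.23 at 2 h. ELI3-2 in the double mutant was at 6.06, 9.64 and 5.1 CPM untreated, 22.5, 28.4 and 24.9 at 1 h and 410.1, 378 and 421 at 2 h. The 3 times did not overlap, and the rises were 1.85 ± 0.42 and 5.84 ± 0.46. UGT76E12 passed the test at 1 h in no mutant and rose by 5.03 ± 0.32, 4.85 ± 0.33 and 5.75 ± 0.36 at 2 h. It overlaps a gene on the other strand. The 15 members at the cell surface and wall, receptor-like kinases, lipid-transfer proteins and wall enzymes, had medians of 2.78, 2.56 and 2.72. The 7 transporters of ions and solutes, with the proton pump HA2, had medians of 1.97, 1.82 and 1.69.

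The mutants were then compared with one another at each time. Shares of all genes here and below are those of the fit to all 36 libraries. Counts from other fits stand without such a share. The comparison with most members called was that between the double mutant and wrky18 at 1 h, where 30 members were higher in the double mutant and 2 lower, against 4.39% and 1.49% of all genes tested. The difference had a median of 0.20 over the 150, against 0.00 over all genes, and 124 members were on the higher side. Between wrky18 and WT at 1 h 0 members were called (0.0562% of all genes higher and 0.0609% lower). Low WT levels at 1 h helped to choose the genes, so a comparison with wrky18 may not be free of that choice, which was not tested. The call count rests in part on single libraries: it was 18 or 16 when replicate 1 or 2 of wrky18 at 1 h was left out, and 20 when replicate 1 of the double mutant at 1 h was. Of the 32 calls, 7 were kept in all 6 fits that leave out 1 library, those of AT1G10140, APK, PMAT1, ERF1, MSRB3, AT3G05390 and AT3G22750. Root and photosynthetic markers gave no call in this comparison.

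APK was at 103, 118 and 109.9 CPM in wrky18 at 1 h, 141, 161 and 153 in wrky40 and 159, 167 and 148 in the double mutant. Both genotypes with the wrky40 mutation stood above wrky18 without overlap. The double mutant was higher than wrky18 by 0.52 ± 0.09 (adjusted p = 0.000414) and wrky40 higher than wrky18 by 0.46 ± 0.09 (adjusted p = 0.00611), the latter lost without wrky18 1 h replicate 1. At 2 h the levels were 312, 308 and 299 CPM in the wrky18 libraries, 479.8, 485 and 487 in those of wrky40 and 566, 467 and 483 in those of the double mutant. The pattern was the same, with differences from wrky18 of 0.66 ± 0.09 for wrky40 and 0.72 ± 0.09 for the double mutant. APK was also the gene whose change from 0 h differed between the double mutant and wrky18 at both times, by 0.59 ± 0.13 at 1 h and 0.80 ± 0.13 at 2 h. The 1 h difference is lost without any of 5 of the 12 libraries concerned, among them wrky18 0 h replicate 1.

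AT1G10140, an uncharacterised conserved protein, was at 21.9, 28.5 and 23.7 CPM in wrky18 against 45.2, 51.9 and 47.3 CPM in the double mutant at 1 h. The groups did not overlap, and the difference was 0.96 ± 0.16. ERF1 was at 3.02, 3.02 and 2.2 CPM in wrky18 against 5.31, 5.72 and 4.86 CPM in the double mutant, a difference of 0.96 ± 0.20. For PMAT1, a malonyltransferase of phenolic glucosides, the levels were 64.3, 73.5 and 63.3 CPM and 118, 122 and 108 CPM, a difference of 0.79 ± 0.15. None of these 3 genes had overlapping libraries. MSRB3, a methionine sulphoxide reductase, differed by 0.36 ± 0.08, the methyltransferase-like AT3G05390 by 0.62 ± 0.13 and the protein kinase AT3G22750 by 0.46 ± 0.10. ABA3, the molybdenum cofactor sulphurase needed for abscisic acid synthesis, was at 10.1, 11.9 and 13.7 CPM (wrky18), 16.5, 15.6 and 17.9 (wrky40) and 16.1, 15.7 and 16.5 (double mutant). Both other mutants lay above wrky18, by 0.48 ± 0.10 and 0.43 ± 0.10, and both calls are lost without wrky18 1 h replicate 1 (that of wrky40 also without wrky40 1 h replicate 3).

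The 2 members lower in the double mutant at 1 h were MYB74, a MYB transcription factor, and AT5G60630, an uncharacterised gene, with differences of -0.94 ± 0.23 and -1.01 ± 0.25. AT5G60630 was at 1.25, 1.48 and 1.46 CPM in wrky18 against 0.895, 0.725 and 0.433 CPM in the double mutant, levels near 1 CPM that did not overlap. The call of MYB74 is lost without double mutant 1 h replicate 1 or wrky18 1 h replicate 2, and that of AT5G60630 without wrky18 1 h replicate 2 or double mutant 1 h replicate 3. Among the 12 transcription factors 4 were higher in the double mutant than in wrky18 at 1 h, ERF1, WRKY45, WRKY39 and Rap2.6L. The last 3 are each lost without several single libraries (double mutant 1 h replicate 1 in all 3 cases).

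**Figure D3:**
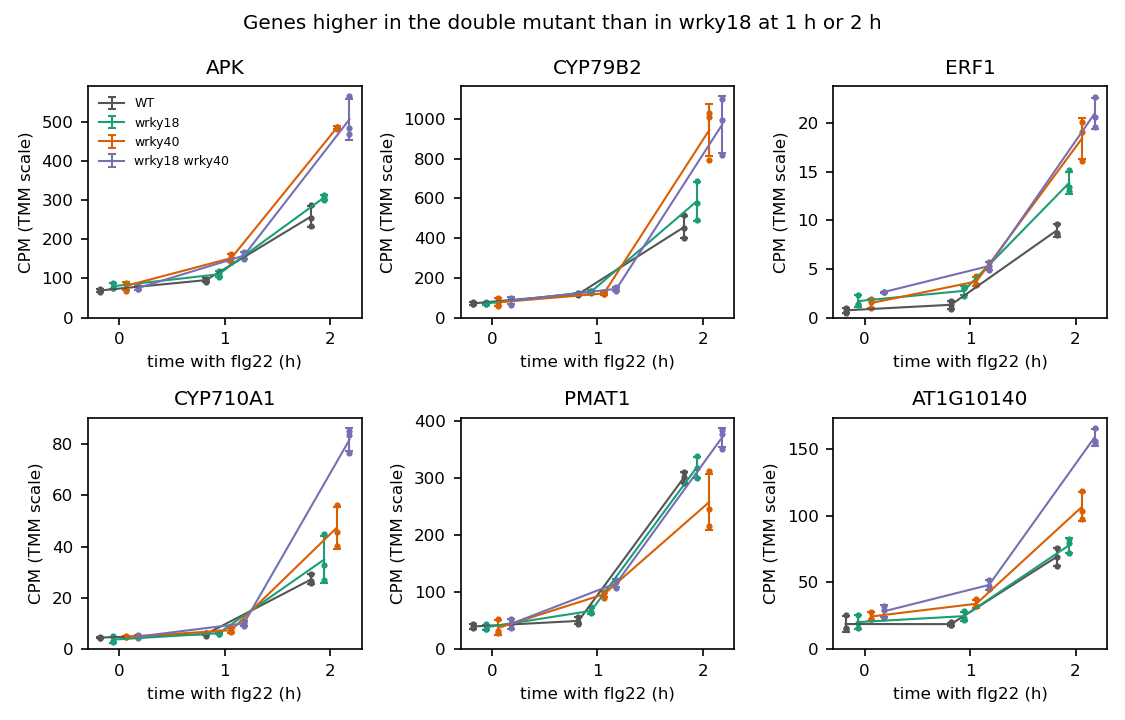
Levels in CPM (TMM scale, vertical axis from 0) of 6 members at 0, 1 and 2 h in the 4 genotypes, with each library as a point and the mean ± SD of 3 libraries joined by lines. At 2 h APK and CYP79B2 are higher in wrky40 and the double mutant than in wrky18, and CYP710A1 is highest in the double mutant.

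By 2 h the difference between the double mutant and wrky18 went both ways: 17 members were higher and 10 lower, against 3.11% and 3.37% of all genes. Without wrky18 2 h replicate 3 there were 16 calls in place of 27, and 16 of the 27 genes kept their call in all 6 fits that leave out 1 library. When only the groups compared were fitted, 46 were called, and the shares above are not those of that fit. CYP710A1, a sterol C-22 desaturase, was at 45, 32.8 and 27 CPM for wrky18, 56.2, 40.3 and 45.6 for wrky40 and 83.5, 76.5 and 85 for the double mutant. The double mutant was above every library of the single mutants, by 1.22 ± 0.14 against wrky18 (adjusted p = 4.3e-07) and 0.79 ± 0.14 against wrky40 (adjusted p = 0.00097). ERF2 was at 45.4, 39 and 38.5 CPM in the wrky18 libraries, 55.5, 65.7 and 60.2 in those of wrky40 and 78.2, 70.4 and 77 in those of the double mutant. The 3 genotypes did not overlap, and the difference between the outer ones was 0.88 ± 0.17.

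CYP79B2 was at 687, 575 and 492 CPM (wrky18), 794, 1027 and 1011 (wrky40) and 1099, 816 and 993 (double mutant). It was higher than in wrky18 by 0.69 ± 0.15 for wrky40 and 0.73 ± 0.15 for the double mutant, and the call for wrky40 is lost without wrky18 replicates 2 or 3 or wrky40 replicates 2 or 3 at 2 h. AT1G26240 was higher by 1.05 ± 0.20, the receptor-like protein RLP50 by 0.83 ± 0.17 and glutathione synthetase GSH2 by 0.25 ± 0.06. RLP50 overlaps a gene on the other strand by at least 500 bp. The GSH2 call is lost on the total-count scale and without wrky18 2 h replicate 1, among others. LSU1 and SHM7 were also called higher, by 0.70 ± 0.20 and 0.46 ± 0.14, although their libraries overlapped and both calls are lost without wrky18 2 h replicate 3, among others.

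The 10 members lower in the double mutant at 2 h include 4 transporters, HA2, PTR3, YSL7 and NRT2.6. Of the 16 root markers 1 was also lower, and its part was not tested. HA2, a main plasma membrane proton pump, was at 1731, 1430.3 and 1469 CPM for wrky18, 1365, 1654 and 1669 for wrky40 and 1089.9, 936 and 1027 for the double mutant. The double mutant lay below every single-mutant library, with differences of -0.60 ± 0.10 from wrky18 and -0.62 ± 0.10 from wrky40. At 1 h it had been at 382, 368 and 413 CPM in the wrky18 libraries, 412, 417 and 532 in those of wrky40 and 459, 453 and 458 in those of the double mutant, which then lay above wrky18 without passing the test (0.24 ± 0.10, adjusted p = 0.15). Its rise from 0 h was smaller in the double mutant than in either single mutant, with differences of -0.66 ± 0.14 and -0.66 ± 0.14. The second of these is lost without wrky40 2 h replicates 2 or 3 or double mutant 2 h replicate 2.

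AT4G12500 was at 103, 66.4 and 85.2 CPM (wrky18), 77.5, 77.7 and 80.5 (wrky40) and 44.8, 27.5 and 34.3 (double mutant). Its double mutant libraries were all below the others, with differences of -1.26 ± 0.23 and -1.15 ± 0.23. AT4G12490 lies 3583 bp away on chromosome 4, and has the same protein family annotation, so the pair may share reads. PTR3 was at 51.7, 40.4 and 51.8 CPM for wrky18, 41, 39.1 and 46.8 for wrky40 and 33, 26.6 and 30.9 for the double mutant, again with no overlap of the double mutant with the others. The differences were -0.67 ± 0.11 and -0.49 ± 0.11, the second lost without double mutant 2 h replicate 2 or wrky40 2 h replicate 3. AT2G26440, a pectin methylesterase, was lower, with differences of -0.75 ± 0.11 and -0.62 ± 0.11, and so was YSL7, with -0.99 ± 0.18 and -0.79 ± 0.18. AT2G41170, an F-box protein, AT5G60630 and NRT2.6 were lower than in wrky18, with differences of -0.86 ± 0.11, -1.22 ± 0.17 and -0.94 ± 0.23. The NRT2.6 call is lost in DESeq2 and without double mutant 2 h replicate 2 or wrky18 2 h replicate 3.

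**Figure D4:**
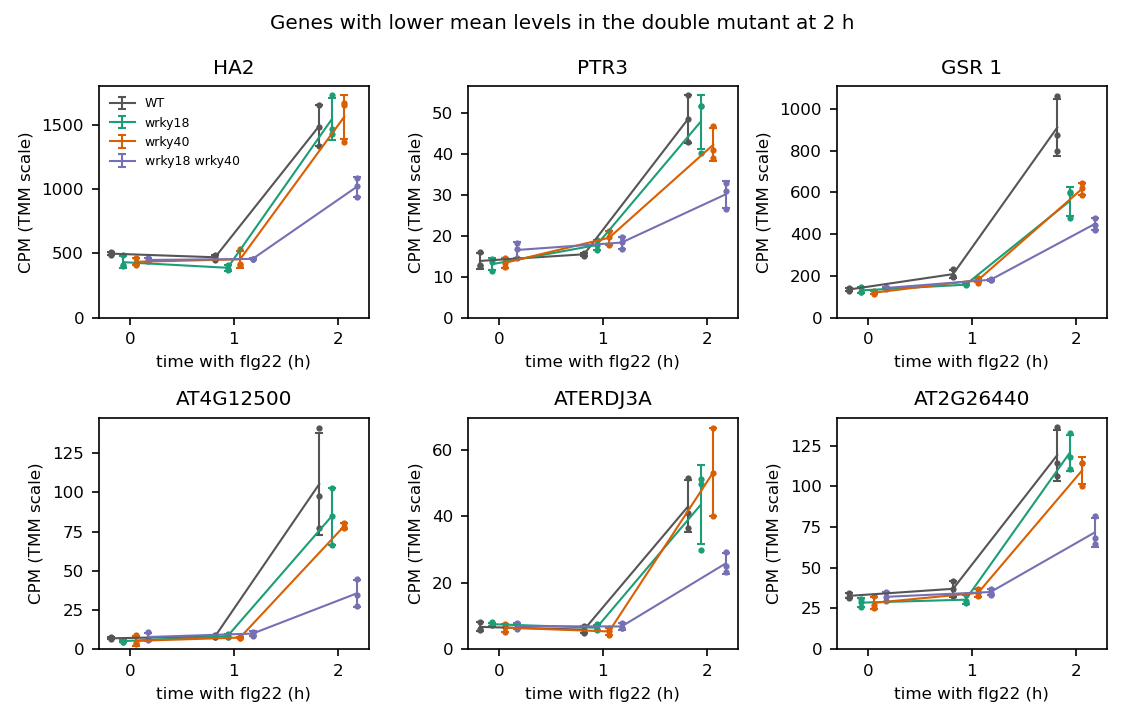
Levels in CPM (TMM scale, vertical axis from 0) of 6 members at 0, 1 and 2 h in the 4 genotypes, with each library as a point and the mean ± SD of 3 libraries joined by lines. At 2 h all 6 have their lowest mean in the double mutant.

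ATERDJ3A was at 51.2, 29.7 and 49.7 CPM in the wrky18 libraries, 40.2, 66.7 and 53 in those of wrky40 and 29.2, 23.2 and 25.2 in those of the double mutant. It was lower in the double mutant, with differences of -1.05 ± 0.18 from wrky40 and -0.76 ± 0.18 from wrky18, the latter lost without wrky18 2 h replicates 1 or 3 or double mutant 2 h replicate 2. GSR 1 was at 599.7, 478 and 597 CPM (wrky18), 586, 644 and 622 (wrky40) and 478, 422 and 446 (double mutant). Its WT libraries stood at 1062, 797 and 872 CPM, above all mutants, a description since WT chose the genes. The double mutant was below both single mutants, with differences of -0.32 ± 0.09 and -0.46 ± 0.09, and the first of these calls is lost in 4 of the 6 fits that leave out 1 library (wrky18 replicates 1 and 3, double mutant replicates 2 and 3 at 2 h). AT5G37590, a tetratricopeptide repeat protein, lies 498 bp from GSR 1.

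Against wrky40 fewer members were called. At 2 h 3 members were higher, CYP710A1, AT1G10140 and PMAT1, and 9 lower, against 1.18% and 2.08% of all genes. The count was 7 without double mutant 2 h replicate 2 and 6 without wrky40 2 h replicate 3. It was 24 when only the groups compared were fitted, and the shares above are not those of these fits. The 9 were HA2, AT2G26440, ATERDJ3A, AT4G12500, GSR 1, CHX16, PTR3, YSL7 and AT2G41170. The first 5 of these and CYP710A1 kept their call in all 6 fits that leave out 1 library. At 1 h no member was called in edgeR (0.0796% of all genes higher and 0.0328% lower), 22 had an unadjusted p below 0.05, and DESeq2 called 1. At 0 h 3 were higher and 0 lower, AT5G39120, XTH30 and ERF1 (0.632% and 0.89% of all genes), none of which kept the call in every fit that leaves out 1 library. With the replicate number as a block there were 6, and without wrky40 0 h replicate 1 there were 21. Neither of these counts has a share of all genes beside it.

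Between wrky40 and wrky18 few members were called. The difference at 1 h had a median of 0.15 over the 150, against 0.01 over all genes, and 112 members were on the higher side in wrky40. This comparison shares the wrky18 libraries with that of the double mutant and wrky18 at 1 h. The limit given there, that wrky18 stood near the WT values that chose the genes, holds here too. At 1 h APK, ABA3, AT3G05390, APR1 and SHM7 were higher in wrky40 (1.03% of all genes were), and with the replicate number as a block there were 9 calls in place of 5. APR1 was at 86.8, 123 and 110.1 CPM in wrky18 and 186, 147 and 143 CPM in wrky40, which did not overlap, a difference of 0.57 ± 0.13. None of the 5 kept its call in every fit that leaves out 1 library, and without wrky18 1 h replicate 1 there was none left. At 2 h APK, CYP79B2, AT3G05390 and AT1G26130 were higher and AT5G60630 lower (0.595% and 0.29% of all genes), and only APK kept its call in all 6 such fits. Without 1 library the count was 1 for wrky40 replicate 2 and wrky18 replicate 3, 2 for wrky18 replicate 2 and wrky40 replicate 3 and 3 for wrky40 replicate 1. At 0 h no member was called in edgeR (0.0562% of all genes higher and 0.00468% lower), 1 with the replicate block and 2 in DESeq2.

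At 0 h the double mutant and wrky18 differed in 4 members, all higher in the double mutant (1.01% of all genes): XTH30 by 0.74 ± 0.13, AT5G39120 by 1.46 ± 0.36, GSH2 by 0.26 ± 0.07 and AT3G47800 by 0.30 ± 0.08. None kept its call in all 6 fits that leave out 1 library, and without wrky18 0 h replicate 2 there was none. XTH30 was at 14.6, 14.5 and 20.6 CPM in wrky18 against 24.8, 27.6 and 30.8 CPM in the double mutant untreated, and at 54.4, 58.4 and 56.6 CPM and 48.8, 60.4 and 57.8 CPM at 2 h. The genotypes were apart at the start and overlapped at 2 h.

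**Figure D5:**
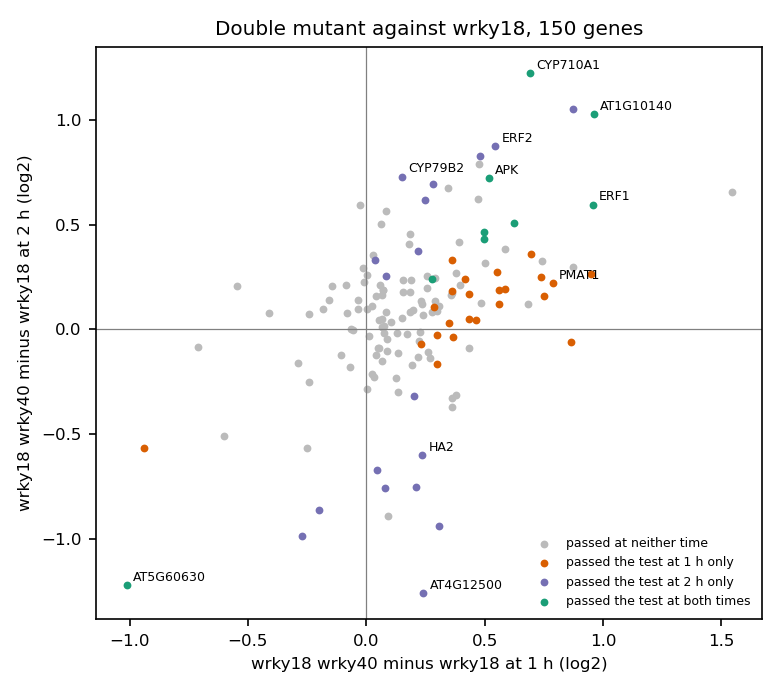
Difference between the double mutant and wrky18 at 1 h (horizontal axis) and at 2 h (vertical axis), in log2 on the TMM scale, for the 150 genes, coloured by the times at which the difference passed the test. CYP710A1, AT1G10140, ERF1 and APK were higher in the double mutant at both times, the 2 h call of ERF1 being lost in 4 of the 6 fits that leave out 1 library and the 1 h call of CYP710A1 in 1. HA2 and AT4G12500 passed the test at 2 h, where they were lower, and not at 1 h.

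The change from 0 h was then compared between mutants. From 0 h to 2 h, 7 members rose less in the double mutant than in wrky40 and none more, against 0.557% and 0.15% of all genes: GSR 1, AT2G26440, HA2, PTR3, AT4G12500, AT5G39120 and ATERDJ3A. Leaving out replicate 1 of wrky40 at 0 h gave 15 calls, and leaving out replicate 2 of wrky40 or replicate 3 of the double mutant at 0 h gave 4. At 2 h, leaving out replicate 2 of wrky40 gave 3, and replicate 3 of wrky40 or replicate 2 of the double mutant gave 2. It was 1 when only the 4 groups compared were fitted. Against wrky18, 8 rose less, PTR3, AT2G26440, AT4G12500, AT5G60630, HA2, XTH30, YSL7 and CYP94C1, and APK rose more (0.73% and 0.332% of all genes). The first 5 of the 8, and APK, kept their call in each of the 12 fits that leave out 1 library. The 2 comparisons share the double mutant libraries. From 0 h to 1 h APK was the only member whose change differed between the double mutant and wrky18 (0.342% of all genes), or 6 with the replicate block and 8 in DESeq2. Between the double mutant and wrky40 at 1 h, and between wrky40 and wrky18 at either time, no member passed in edgeR, where 0.0234%, 0.0843% and 0.00937% of all genes did. For wrky40 against wrky18 the replicate block gave 3 at 1 h and 1 at 2 h, and DESeq2 2 and 1.

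Values against WT are given only as a description. In wrky18 0 members differed at 0 h (0.00468% of all genes higher and 0.0187% lower) and 0 at 1 h (0.0562% and 0.0609%), and 2 were lower at 2 h (0.0421%). In wrky40 15 were higher at 1 h (1.68% of all genes), and 15 higher and 4 lower at 2 h (2.74% and 1.28%). In the double mutant 12 were higher at 0 h (1.84%), 34 at 1 h (3.99%), and 37 higher and 16 lower at 2 h (7.23% and 6.96%). Since low WT levels at 0 h and 1 h helped to choose the genes, nothing is read from these counts.

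Some untreated libraries stood above their group for these genes. In wrky40 0 h replicate 1, 102 of the 150 members were highest of the 3 libraries, and 26 were at least 1.5 times the next. In wrky18 0 h replicate 1 the numbers were 94 and 20, while in any other library at most 82 members were highest of their group and at most 8 were at least 1.5 times the next. Alongside CYP71A13, NIT4 was at 28.4, 8.18 and 8.14 CPM in the untreated wrky40 libraries, the lipoxygenase LOX1 at 59.3, 28.6 and 22.7 CPM and the trypsin inhibitor TI1 at 63.7, 23.8 and 19.6 CPM. Replicate 1 was the high one each time. Without wrky40 0 h replicate 1 all 150 still rose at 2 h in wrky40, and 5 rather than 0 members differed between wrky40 and wrky18 at 0 h.

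What the 150 share beyond their timing was described next to the 1718 genes that were already higher at 1 h and to all genes tested. Words for transporter stood in the RefSeq description of 11 members (7.33%), against 2.50% of the early genes and 2.19% of all genes tested. The word kinase stood in 7 (4.67%), against 13.3% and 5.55%, and words for disease resistance in none, against 2.15% and 0.791%. Transcription factor terms, with zinc finger among them, were in 12 (8.00%), against 5.18% and 4.39%. These 12 are not the same set as the 12 transcription factors named above. They include BTS and AT4G09560, whose descriptions hold the words zinc finger, and leave out Rap2.6L and AT3G12510. The median gene length was 2240 bp, against 2304 and 2362 bp, and 25.3% had a single exon, against 24.8% and 17.6%. There were 6 pairs of members within 20 kb of each other, LSU3 and LSU1 (1760 bp apart), WRKY45 and ACR6 (2686 bp), AT4G12490 and AT4G12500 (3583 bp), CYP79B2 and DHS1 (11908 bp), NIT4 and ELM1 (15360 bp) and AT5G37590 and GSR 1 (498 bp).

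Promoters were searched on both strands over 250 bases before and 50 after the gene start. The W box core TTGAC was in 59.3% of the members' windows, against 73.4% of those of the 1716 early genes with a window and 51.4% of those of 21216 genes tested. Its longer forms TTGACC or TTGACT, which contain the core, were in 39.3%, against 58.2% and 33.2%. Among the 30 members higher in the double mutant than in wrky18 at 1 h, 22 (73.3%) held the core, as PMAT1 and CYP710A1 do and APK does not. Among the 17 higher at 2 h, 10 (58.8%) held it, near the share of all members, and among the 10 lower at 2 h 5 did. The 1 h set changes with single libraries, as given above. The G box CACGTG, a site of bZIP and bHLH factors, was in 16.7% of the members, against 6.70% and 8.56%, with LSU3, WRKY45, NAC019, ABA3, ERF2, BI1 and ACX1 among the 25. The evening element AAATATCT, a site of clock factors, was in 13.3%, against 6.64% and 5.80%, with FKF1, CYP79B2, DHS1, SHM7, AT4G12500 and HA2 among the 20. Other motifs were closer to the background: TGACG was in 26.0% against 28.4% and 23.7%, GCCGCC in 3.33% against 3.61% and 2.68%, and ACCAACC or ACCTACC in 7.33% against 5.19% and 4.76%. TGACG may overlap TTGAC by up to 4 bases. The members and the early genes were chosen by their WT timing. The sets of 30, 17 and 10 members were chosen by their calls between the double mutant and wrky18 in these same data. No test was made, and a match is no evidence of binding.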

How the data were processed

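The data are raw counts per gene in 36 libraries (3 for each of 12 groups), in 1 table deposited by the authors. Per the submitters' processing notes, reads were checked with FastQC 0.11.2, aligned with TopHat2 2.0.10 and counted with HTSeq on the TAIR10 build. Per the labels' protocols the libraries were stranded, and the strand setting of the counting is not given in the sources used here. Where reads of overlapping or copied genes fall therefore bears on the genes named as such.

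Members were chosen by the rule stated at the start of the report. Genes passing edgeR's filterByExpr (21356) were fitted in edgeR 4.0.16 (R 4.3.3) with TMM scaling, 12 group means over all 36 libraries and the quasi-likelihood test, with 24 residual degrees of freedom and a common biological coefficient of variation of 10.7%. Changes are log2, their standard errors follow from the change and the test's F, and p-values were adjusted by Benjamini-Hochberg over all genes in each of 24 comparisons. The fit was tested on simulated data with known changes. For the double mutant against wrky18 at 1 h it called 88% of 2-fold, 70% of 1.5-fold and 38% of 1.33-fold rises. For the difference in change from 0 h to 2 h it called 76%, 34% and 10%. A comparison with few or no calls may therefore miss small differences. Levels are CPM scaled by TMM, intervals on low counts are exact and cover counting error only, and depth (17287229 to 38709715 counts) limits the genes near 1 CPM most. Alternatives were RLE or total-count scaling, no filter on low counts, a replicate block, DESeq2 1.42.0, fitting only the groups compared, leaving out each library, and other settings of the rule.

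The design text describes 3 biological replicates of 12 samples each, so the replicate number may mark a shared experiment. Deviations of same-numbered libraries from their group means correlated with a median r of 0.13 (-0.03 to 0.44 over 198 pairs, 127 of them above 0.1). For libraries with different numbers the median r was -0.07. In 12 of 30 comparisons checked, all 3 same-numbered pairs were above 0.1. The main fit holds no term for the replicate number. Blocked counts are printed where they move a count by over 1.5 times. Where the labels do not say that replicates came from separate cultures, p-values measure the spread between these samples.

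The members and gene lists were chosen with earlier results of these data known, and the role groups and the sulphate list after the members' values were seen. Named genes were the 10 highest by the rule, those nearest its limits, members of a gene list, the 5 largest called rises and falls at 1 h and the 3 largest and 3 smallest changes at 2 h in each mutant, the 5 with the smallest adjusted p each way between mutants, and transcription factors. Other members were named after their values were seen. Symbols, descriptions and gene models come from RefSeq (TAIR10.1, matched by locus). Promoters were cut from that genome and not read from a promoter table, and proteins are not used here. TRP1 is the tryptophan gene AT5G17990.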

Additional observations from a re-analysis of the deposited data

Results flagged for a closer look

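Each of the following members differed between 2 mutants in its change from 0 h, by edgeR's quasi-likelihood test of that difference with Benjamini-Hochberg adjustment over all genes tested. Values are log2 differences with their standard errors, and the double mutant is the first of each pair.

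Against wrky40, 7 members rose less in the double mutant between 0 h and 2 h. GSR 1 differed by -0.71 ± 0.13 (adjusted p = 0.00719), AT2G26440 by -0.79 ± 0.15 (adjusted p = 0.00994) and HA2 by -0.66 ± 0.14 (adjusted p = 0.0155). PTR3 differed by -0.79 ± 0.17 (adjusted p = 0.0169) and AT4G12500 by -1.64 ± 0.36 (adjusted p = 0.0221). AT5G39120, a cupin, differed by -1.73 ± 0.41 (adjusted p = 0.0387) and ATERDJ3A by -1.14 ± 0.28 (adjusted p = 0.0481). GSR 1 and AT2G26440 kept the call in each of 12 fits that leave out 1 library, and the other 5 lost it in 3 to 10 of them. AT5G39120 was already higher in the double mutant at 0 h, by 1.51 ± 0.37.

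Against wrky18, 8 members rose less and 1 rose more in the double mutant between 0 h and 2 h. PTR3 differed by -1.01 ± 0.16 (adjusted p = 0.000958), AT2G26440 by -0.92 ± 0.15 (adjusted p = 0.00134) and AT4G12500 by -1.85 ± 0.36 (adjusted p = 0.00585). AT5G60630 differed by -1.5 ± 0.31 (adjusted p = 0.00903) and HA2 by -0.66 ± 0.14 (adjusted p = 0.00925). XTH30 differed by -0.76 ± 0.18 (adjusted p = 0.0285), YSL7 by -1.11 ± 0.27 (adjusted p = 0.0315) and CYP94C1 by -1.18 ± 0.30 (adjusted p = 0.0411). These last 3 lost the call in 7, 7 and 9 of 12 fits that leave out 1 library. APK rose more, by 0.80 ± 0.13 (adjusted p = 0.0007) at 2 h, and by 0.59 ± 0.13 (adjusted p = 0.0198) at 1 h, where 5 of 12 such fits lost the call.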

How the results depend on the processing

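Over 31 counts and 493 alternatives, 400 counts stayed within 1.5 times and 93 moved. Of 1790 alternatives for 141 values of single genes, none changed direction and 327 lost the call. All counts at 2 h against 0 h (149 to 150 higher) and against 1 h (148 to 150) held in every fit that leaves out 1 library. The cause of the moves below was not tested.

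Counts printed here are members called, with the reported count in brackets. No share of all genes called in the alternative fits stands beside them. On the total-count scale, 73 members were higher at 1 h in wrky18 (113), lower calls at 1 h were 10 for wrky18 (1), 6 for wrky40 (0) and 12 for the double mutant (2), and the response differences were 2 for double mutant minus wrky18 to 1 h (1) and 1 for wrky40 minus wrky18 to 2 h (0). With the replicate block, calls were 2 lower at 1 h in wrky18, 6 for double mutant minus wrky40 at 0 h (3), 1 and 9 for wrky40 minus wrky18 at 0 h and 1 h (0 and 5), 6 for the response of double mutant minus wrky18 to 1 h, and 3 and 1 for that of wrky40 minus wrky18 to 1 h and 2 h (0 and 0). With only the groups compared, calls were 1 lower at 1 h in the double mutant, 0, 2 and 24 for double mutant minus wrky40 at 0, 1 and 2 h (3, 0 and 12), 0 and 46 for double mutant minus wrky18 at 0 h and 2 h (4 and 27), 3 and 9 for wrky40 minus wrky18 at 1 h and 2 h (5 and 5), 1 for the response of double mutant minus wrky40 to 2 h (7) and 0 for that of double mutant minus wrky18 to 1 h. DESeq2 gave 5 and 1 for double mutant minus wrky40 at 0 h and 1 h, 8 for double mutant minus wrky18 at 0 h, 2 and 8 for wrky40 minus wrky18 at 0 h and 1 h, 8 for the response of double mutant minus wrky18 to 1 h, and 2 and 1 for that of wrky40 minus wrky18. Without the filter on low counts the last comparisons gave 2 (double mutant minus wrky18 to 1 h) and 1 (wrky40 minus wrky18 to 2 h).

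Leaving out 1 library at a time, lower calls at 1 h ran from 0 to 2 for wrky18, 0 to 1 for wrky40 and 0 to 3 for the double mutant. Double mutant minus wrky18 ran from 0 to 7 at 0 h, 16 to 26 at 1 h and 16 to 23 at 2 h, and its response from 0 to 3 at 1 h and 6 to 9 at 2 h. Double mutant minus wrky40 ran from 0 to 21, 0 to 0 and 6 to 17, and its response from 0 to 1 and 2 to 15. For wrky40 minus wrky18 the ranges were 0 to 5, 0 to 4 and 1 to 4, and 0 to 3 and 0 to 2 for the response.

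Of the 150 genes, 57 remained with a limit of 0.25 on the 1 h change, 79 with TMM-scaled CPM in the rule, 140 with a pseudocount of 0.5, 129 with at least 10 CPM, and 125, 134 and 128 without WT replicate 1, 2 or 3. With members chosen without WT replicate 1, calls were 2 lower at 1 h in wrky18, 1 in wrky40, 1 for double mutant minus wrky40 at 1 h, 3 for the response of double mutant minus wrky18 to 1 h and 1 for that of wrky40 minus wrky18. Chosen without WT replicate 2, they were 1 lower at 1 h in wrky40 and 1 in the double mutant. The replicate block moved no other count by over 1.5 times.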

Other observations

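Members outside the role groups also rose at 2 h in each mutant. LOX1, a 9-lipoxygenase, was at 40.2, 58.2 and 45.4 CPM untreated and 264, 243 and 268 CPM at 2 h in the double mutant, a change of 2.43 ± 0.24 against 2.02 ± 0.24 in wrky18 and 2.44 ± 0.24 in wrky40. G6PD6, which feeds the oxidative pentose phosphate pathway, rose by 1.82, 1.91 and 1.51 in wrky18, wrky40 and the double mutant. PDC2, a pyruvate decarboxylase, rose by 2.01, 1.92 and 2.05, and AER, an alkenal reductase, by 2.24, 2.11 and 2.13. The protease inhibitors UPI and TI1 rose by 2.1 and 1.85 in the double mutant. ATG8H, an ATG8 protein of autophagy, rose by 1.87, 1.68 and 1.98. Cell cycle genes were present as well, with the kinase inhibitor ICK3 at 1.89, 1.56 and 1.67 and ESP, separase, at 1.94, 2.15 and 2.09. BTS, an iron-binding ubiquitin ligase of iron homeostasis, rose by 2.20, 1.88 and 2.13. These genes were named after their values were seen.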
